A study of Capra hircus with 8 samples.

Results

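Predicted miRNAs are small RNAs without a goat miRNA name that the authors inferred from their reads and numbered novel_mir. The 11 described here were selected on measured values, a count above 0 in each of the 8 libraries, out of 664 predicted miRNAs and 5093 features in the deposited table. The study sequenced small RNA of mammary gland cells from Lanshan dairy goat, grown in 3D culture, with 2 libraries in each of 4 groups. The groups were the controls 3NC and 5NC, cells given circRNA28250 by virus (overexpression, labelled cRNA28250) and cells in which circRNA28250 was inhibited (knockdown, labelled cKDmix). The series text lists 5NC beside overexpression and 3NC beside knockdown, and the comparisons follow that order because no label states the pairing outright. How many goats the cells came from, whether the libraries of a group are separate cultures, and what the control names stand for is not given in the sources used here. P-values are thus based on the spread of these libraries alone, part or all of which may be technical.

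MiRNAs are cut from hairpin transcripts by the nucleases Drosha and Dicer, and the mature strand guides Argonaute proteins to messenger RNAs, which are then repressed. A prediction program looks for small RNA reads that pile up on one arm of a genome stretch able to fold into such a hairpin, so a predicted miRNA is a candidate until its processing has been tested. In mammary cells, named miRNAs are studied for roles in growth, milk fat synthesis and lactation. A circular RNA has no free ends, and some of this kind are studied because they bind miRNAs. The predicted miRNAs have no names or known targets in the files, so no function can be attached to a member.

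Library totals ran from 6588354 to 32066029 reads, and reads of known and predicted miRNAs from 122435 to 5039336, the lowest in the knockdown libraries. The predicted miRNAs listed in a library numbered between 55 and 279. Known miRNAs of other cell types were measured beside the members in CPM, the counts divided by the miRNA total of the library times its TMM factor and scaled to a common size. The epithelial list (8 of 9 names found, without miR-205) summed to 155 to 303 CPM in 3NC, 1046 to 14242 CPM in 5NC, 164 to 626 CPM with overexpression and 885 to 1346 CPM with knockdown, with miR-141 at 0 in the second 3NC and miR-200a at 0 in the first overexpression library. The mesenchymal list (4 of 5 names) ran from 15948 to 24689 CPM in 3NC, from 372 to 5008 CPM in 5NC, from 8939 to 17816 CPM with overexpression and from 14502 to 39219 CPM with knockdown, with no name at 0. The label of mammary gland cells thus stands beside epithelial miRNAs that were present in each library, at a lower sum than the mesenchymal ones in 7 of 8. In such bulk libraries, fewer cells of a type and less RNA per cell cannot be told apart.

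The rule is a detection rule, and the deposited table sets its height. No predicted miRNA had a count from 1 to 9 in any library, and the smallest of their 1162 counts above 0 was 10, whereas named miRNAs had counts down to 1. A predicted miRNA listed at 0 may therefore have had up to 9 reads, and a member needed at least 10 reads in each library. In the second knockdown library, 10 reads correspond to 81.7 CPM before TMM factors, and in the first 5NC library to 1.98 CPM. Of the 664 predicted miRNAs, 477 were listed in 1 library, 81 in 2 and 13 in 7.

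**Figure D1:**
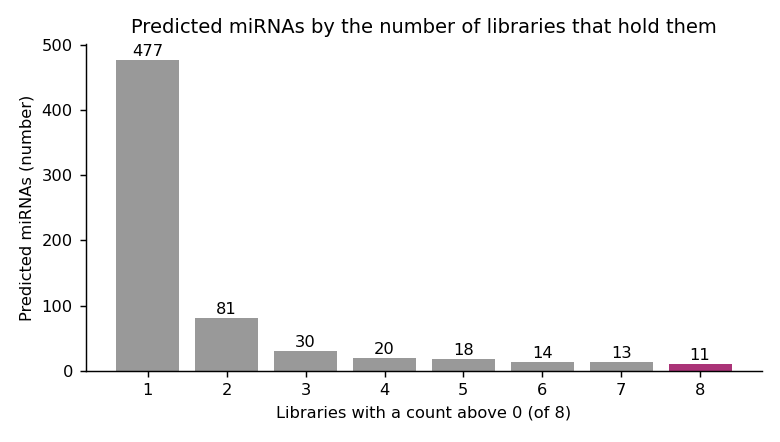
Number of predicted miRNAs (vertical axis) listed with a count above 0 in 1 to 8 libraries (horizontal axis). The bar of 477 in 1 library is the highest, and the 11 members form the last bar.

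Just inside the rule were novel_mir5 with a lowest count of 10 (exact 95% Poisson interval 4.80 to 18.4), novel_mir20 with 11 (5.49 to 19.7), novel_mir10 with 19, novel_mir215 with 22 and novel_mir6 with 49, each in the second knockdown library. Just outside, 13 predicted miRNAs were missing from 1 library, 5 of them from the first 5NC library, 4 from the second and 3 from the first knockdown library, and 1 from the second overexpression library. The most abundant of these were novel_mir4 with a mean of 3293 CPM, novel_mir3 with 3289 CPM, novel_mir7 with 789 CPM, novel_mir401 with 549 CPM and novel_mir766 with 416 CPM. All 5 except novel_mir7 were listed at 0 in the first 5NC library, and novel_mir7 was listed at 0 in the second knockdown library. After a random thinning of each library to 122435 miRNA reads, 10 of the 11 members still had a read in each library, and novel_mir20 was lost. That count asks for any read, not for the 10 reads the deposited table requires. Novel_mir5 fell to 3 and 8 reads in the 3NC libraries and to 2 in the first overexpression library. In the latter, novel_mir6 fell to 7.

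The position of each member is given as the deposited table writes it, on the reference sequences it names, whose build is not given in the sources used here. Each of the 664 predicted miRNAs had 1 row and 1 position, so the reads of a member were not divided over several loci. Whether reads that match several places were counted at 1 of them is not given. Of the 11 members, 8 lay on sequences with the NC prefix that RefSeq uses for chromosomes and 3 on sequences with the NW prefix of unplaced scaffolds. Among the 653 predicted miRNAs missing from at least 1 library, 43 (6.58%) lay on scaffolds, against 27.3% of the members.

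Novel_mir1 was placed on the plus strand of scaffold NW_017213922.1 from 10100 to 10159. Novel_mir720 lay on the minus strand of scaffold NW_017191089.1 from 10798 to 10852, and novel_mir215 on the minus strand of scaffold NW_017189519.1 from 349225 to 349288. These scaffolds carried no other predicted miRNA. Novel_mir432 was placed on the plus strand of NC_030822.1 from 68473854 to 68473911, and novel_mir2 on the plus strand of NC_030813.1 from 58667096 to 58667154. Novel_mir5 had the longest stretch, on the plus strand of NC_030826.1 from 30434772 to 30434850. Novel_mir20 lay on the plus strand of NC_030811.1 from 26136767 to 26136821.

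A pair of members shared NC_030810.1, novel_mir164 on the minus strand from 1199515 to 1199577 and novel_mir8 on the plus strand from 104707189 to 104707252. Another pair shared NC_030812.1, novel_mir6 on the minus strand from 25737247 to 25737312 and novel_mir10 on the plus strand from 61393390 to 61393460. No member had another member as its nearest predicted miRNA. The nearest neighbour of all was novel_mir590, on the same strand 5670 bases from novel_mir164, with 67 reads in the first knockdown library and none listed elsewhere. Then came novel_mir744, on the same strand 113356 bases from novel_mir8, with 31 reads in the first knockdown library alone. The other nearest neighbours were 981179 to 15247796 bases away.

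The 2 ends of a member lay 54 to 78 bases apart (median 62), and those of the other predicted miRNAs 34 to 99 (median 61). No member overlapped a predicted piRNA of the same table, and 4 of the other 653 did. No sequence is shown, because the deposited table gives positions and no sequences.

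The members held most of the reads that went to predicted miRNAs, which their choice by detection favours. They took 71.4% of these reads in the first knockdown library and 87.7% to 97.1% in the other 7. Novel_mir1 gave 45.5% of all member reads over the 8 libraries, novel_mir432 36.9%, novel_mir164 11.4% and novel_mir2 2.71%. The other 7 members each gave under 1.20%, down to 0.0252% for novel_mir20.

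As a share of all miRNA reads, the 11 members summed to 13.2% and 26.3% in the 3NC libraries, first and second in that order, and to 18.0% and 18.4% in 5NC. The shares were 7.27% and 28.1% with overexpression and 9.19% and 17.0% with knockdown. The widest exact 95% binomial interval ran from 16.8% to 17.2%, in the second knockdown library. Such intervals hold no more than counting error, since without molecular identifiers 2 reads can be copies of 1 molecule. Group means were 19.8% ± 9.27 in 3NC, 18.2% ± 0.246 in 5NC, 17.7% ± 14.8 with overexpression and 13.1% ± 5.54 with knockdown (SD, n = 2). The groups overlapped in both comparisons with a control, and with 2 libraries on each side an exact permutation test gives at best p = 0.33.

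**Figure D2:**
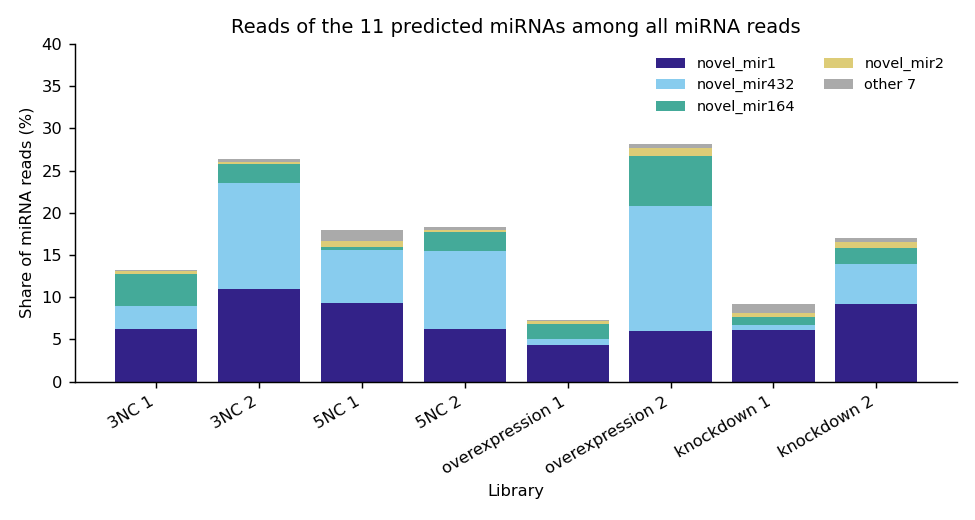
Share of miRNA reads (percent) taken by the members in each library, stacked by member. The bars run from 7.27% in the first to 28.1% in the second overexpression library, and the part of novel_mir432 varies most.

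The leading member differed between libraries of a group. In the second overexpression library novel_mir432 led the members with 59353 reads, 52.7% of theirs, while novel_mir1 led in the first with 215338 reads, 60.2% of theirs. Novel_mir432 also led in the second 3NC and the second 5NC library, and novel_mir1 led in the other 5. For each 1000 reads of novel_mir1 in the same library, a ratio that no scaling touches, novel_mir432 had 453 and 1138 in 3NC, 682 and 1459 in 5NC, 139 and 2493 with overexpression, and 92.4 and 518 with knockdown. The second library of each group was the higher one. The replicate numbers are only names unless the labels say more, so this order is given as a description.

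By the mean of 8 libraries, novel_mir1 and novel_mir432 ranked 4 and 5 among all known and predicted miRNAs. Novel_mir164 ranked 12, novel_mir2 34, novel_mir720 62 and novel_mir5 69, and novel_mir20 came last of the members at 189. The number of members among the 10 most abundant miRNAs of a library was 1 in the first knockdown library and 2 or 3 in the others. Levels are given as CPM for the first and the second library of each group.

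Novel_mir1 stood at 83940 and 167573 CPM in 3NC, 119587 and 88840 CPM in 5NC, 68241 and 51223 CPM with overexpression, and 31476 and 35279 CPM with knockdown. All 4 control libraries were above all 4 libraries with circRNA28250 modified, and the knockdown libraries were the lowest. Its highest library was 5.32 times its lowest. Without TMM factors this order was lost. The highest was still the second 3NC library at 110111 CPM, the lowest was the first overexpression library at 43750 CPM, and the knockdown libraries had 61003 and 92098 CPM, against 61983 CPM in the first 3NC library.

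Novel_mir432 had 38031 and 190754 CPM in 3NC, 81501 and 129625 CPM in 5NC, 9481 and 127697 CPM with overexpression, and 2908 and 18268 CPM with knockdown. The knockdown libraries were below every control library, and of the overexpression libraries the first was below all controls and the second among them. Without TMM factors the second knockdown library, at 47691 CPM, was above the first 3NC library, at 28083 CPM. Novel_mir164 had 49914 and 33856 CPM in 3NC, 5003 and 32139 CPM in 5NC, 28809 and 51023 CPM with overexpression, and 4891 and 7168 CPM with knockdown. Its low libraries were both knockdown libraries and the first 5NC library, while without TMM factors the second knockdown library (18712 CPM) was close to the first overexpression library (18469 CPM).

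With TMM factors novel_mir2 was the steadiest member, with an SD of 0.70 on the log2 scale over the 8 libraries. Next came novel_mir1 (0.84), the scarce novel_mir20 (1.07) and novel_mir10 (1.40). Without TMM factors novel_mir1 had the smaller range. Its highest library was then 2.52 times its lowest, against 3.78 times for novel_mir2. Novel_mir2 had 5025 and 3904 CPM in 3NC, 9449 and 3812 CPM in 5NC, 4643 and 8341 CPM with overexpression, and 2402 and 2647 CPM with knockdown. The knockdown libraries were again the lowest pair, but without TMM factors they had 4655 and 6910 CPM, above 3711 and 2565 CPM in 3NC. With TMM factors the widest spread was that of novel_mir5 (2.64), novel_mir432 (2.13) and novel_mir215 (1.88). The median SD of the 11 members was 1.47, and that of the 190 known miRNAs found in all libraries 1.49.

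Novel_mir5, novel_mir215 and novel_mir6 were highest in the first 5NC library. Novel_mir5 reached 8486 CPM there and 477 CPM in the other 5NC library. It had 58.6 and 91.3 CPM in 3NC, 42.8 and 68.8 CPM with overexpression, and 131 and 31.3 CPM with knockdown. Its highest library was 17.8 times the next. Novel_mir215 had 4184 and 316 CPM in 5NC, 128 and 137 CPM in 3NC, 125 and 157 CPM with overexpression, and 570 and 68.8 CPM with knockdown, so that its highest library was 7.34 times the next. Novel_mir6 had 3062 and 599 CPM in 5NC, 221 and 217 CPM in 3NC, 115 and 172 CPM with overexpression, and 145 and 153 CPM with knockdown, with the highest library 5.11 times the next. For novel_mir5 and novel_mir6 the second 5NC library was the next highest, and for novel_mir215 it was the first knockdown library. Measured against 1000 reads of novel_mir1 in the same library, these 3 members had 71.0, 35 and 25.6 reads in the first 5NC library and at most 5.37, 18.1 and 6.75 in another.

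Novel_mir720 was lowest where those 3 were highest. It stood at 94.7 CPM in the first 5NC library, beside 2775 CPM in the second. Its levels were 1351 and 3656 CPM in 3NC, 1013 and 2719 CPM with overexpression, and 558 and 1364 CPM with knockdown. The next lowest library was 5.89 times higher. Each second library was above the first in its group, as for novel_mir432.

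**Figure D3:**
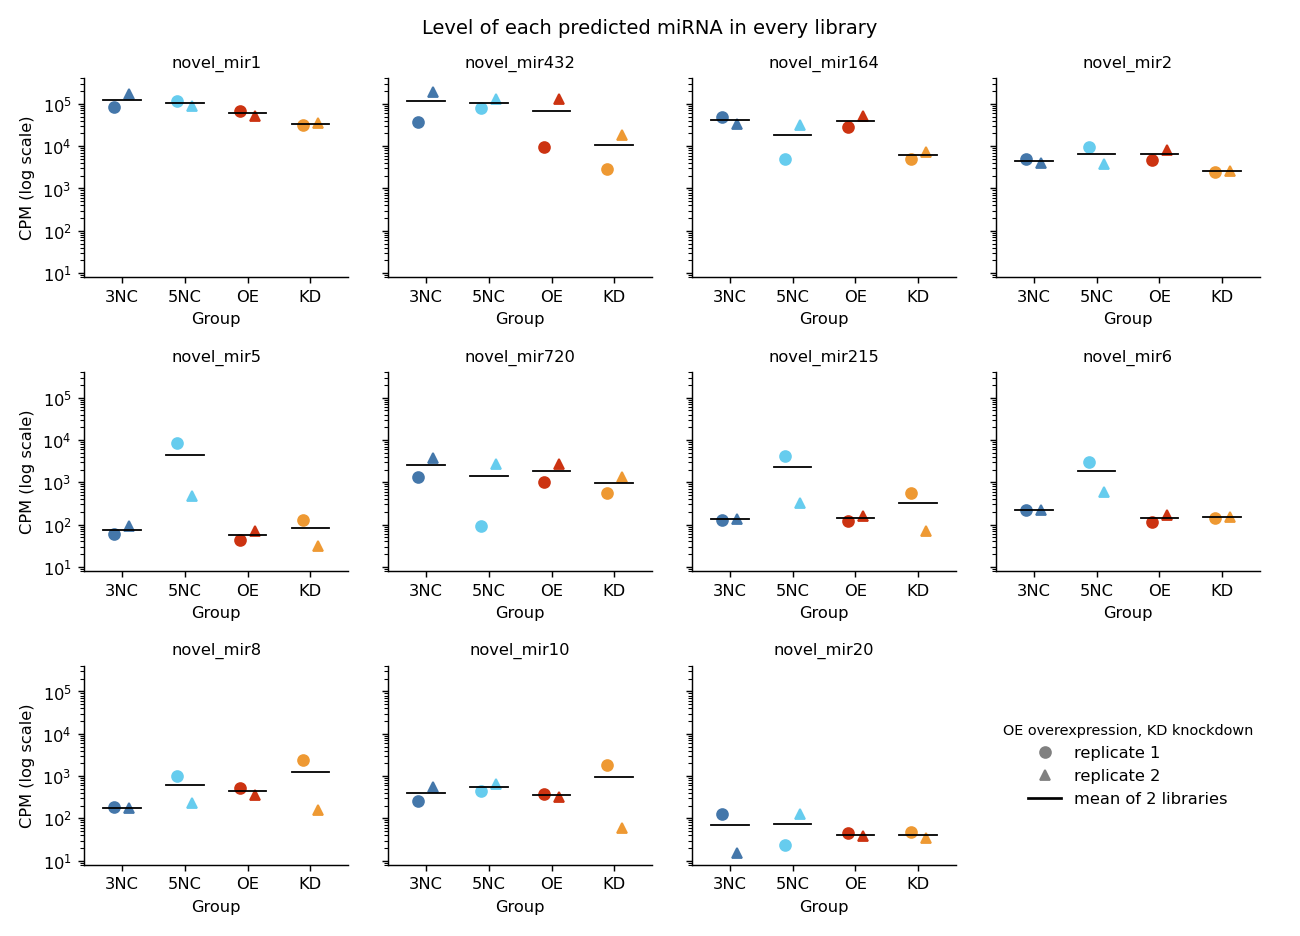
CPM on a log axis (vertical) by group (horizontal) for each member, with a circle for replicate 1, a triangle for replicate 2 and a line for the mean of 2 libraries. The circle of 5NC stands alone at the top for novel_mir5, novel_mir215 and novel_mir6, and the circle of knockdown for novel_mir8 and novel_mir10.

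Novel_mir8 and novel_mir10 were highest in the first knockdown library and lowest in the second. Without TMM factors novel_mir8 had 408 CPM in the second, and its lowest library was the second 3NC at 116 CPM. Novel_mir8 had 2405 and 156 CPM in the knockdown libraries, 182 and 176 CPM in 3NC, 1027 and 231 CPM in 5NC, and 533 and 353 CPM with overexpression. Novel_mir10 had 1878 and 59.4 CPM in the knockdown libraries, 261 and 552 CPM in 3NC, 452 and 660 CPM in 5NC, and 376 and 323 CPM with overexpression. The knockdown libraries of novel_mir10 thus enclosed all 6 others. Their counts were 827 and 50 reads for novel_mir8 and 646 and 19 reads for novel_mir10.

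Novel_mir20 was the scarcest member, with 125 and 14.9 CPM in 3NC, 23.6 and 127 CPM in 5NC, 44.4 and 38.7 CPM with overexpression, and 46.5 and 34.4 CPM with knockdown. Both modified groups lay within the range of each control, but without TMM factors the knockdown libraries had 90.2 and 89.8 CPM, just above the 18.3 and 89.4 CPM of 5NC. Its counts were 11 to 264 reads.

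**Figure D4:**
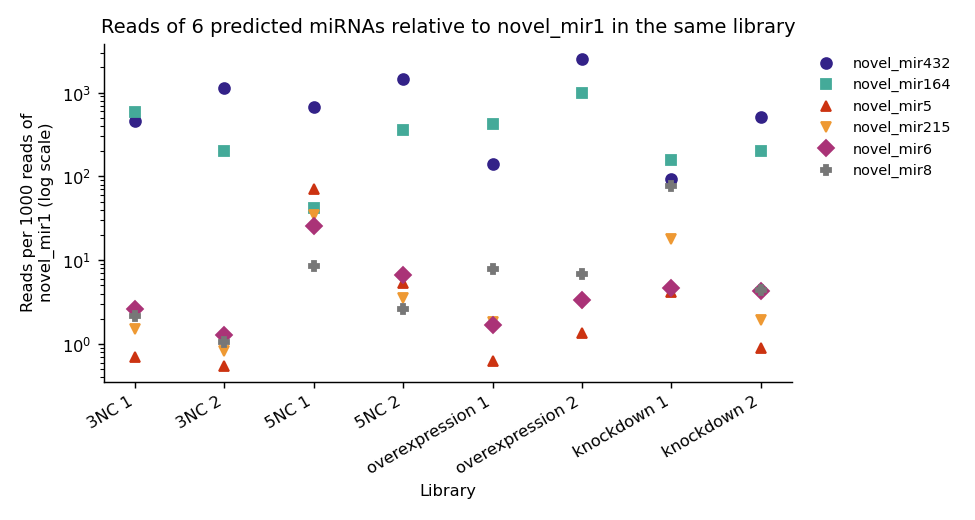
Reads of 6 members per 1000 reads of novel_mir1 in the same library, on a log axis (vertical), for each library (horizontal). Novel_mir5, novel_mir215 and novel_mir6 reach 71.0, 35 and 25.6 in the first 5NC library, and novel_mir8 reaches 76.4 in the first knockdown library.

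The libraries of a group differed by over 2 times for 4 of 11 members in 3NC, 8 in 5NC, 2 with overexpression and 6 with knockdown. Among the 190 known miRNAs found in all libraries these shares were 21.6%, 66.3%, 60.5% and 61.1%. The largest ratios within a group were 31.6 for novel_mir10 with knockdown, 29.3 for novel_mir720 and 17.8 for novel_mir5 in 5NC, 15.4 for novel_mir8 with knockdown and 13.5 for novel_mir432 with overexpression. These numbers hold with TMM factors. Without them the overexpression libraries also differed by over 2 times for novel_mir164 (18469 and 59320 CPM) and novel_mir2 (2977 and 9698 CPM). The same held for novel_mir5 (27.4 and 80.0 CPM), novel_mir215 (79.8 and 183 CPM) and novel_mir6 (74.0 and 200 CPM). In 3NC, novel_mir10 no longer did (193 and 363 CPM). Known miRNAs were not counted without TMM factors.

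The first comparison, overexpression against 5NC, concerns cells supplied with additional circRNA28250. All 11 members were among the 402 miRNAs tested, which their lowest count of 10 in each library assured. The group mean of novel_mir5 was 55.8 ± 18.4 CPM with overexpression, against 4482 ± 5663 CPM for 5NC (SD, n = 2). Its log2 fold change was −6.33 ± 1.74 (SE), with an edgeR adjusted p of 0.49. Novel_mir6 had 144 ± 40.1 against 1831 ± 1741 CPM (−3.67 ± 1.22), novel_mir215 141 ± 23.0 against 2250 ± 2735 CPM (−4.0 ± 1.62) and novel_mir1 59732 ± 12034 against 104214 ± 21742 CPM (−0.80 ± 0.68). In these 4 members the groups did not overlap, with both overexpression libraries below both 5NC libraries. On the other side, novel_mir164 had 39916 ± 15708 against 18571 ± 19188 CPM (1.10 ± 0.97) and novel_mir720 1866 ± 1207 against 1435 ± 1895 CPM (0.38 ± 1.47, but −0.64 when scaled by all named small RNA reads), and their groups overlapped.

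None of the 11 members passed the edgeR test in this comparison, nor did any of the 402 miRNAs (0%). An unadjusted p under 0.05 was found for 3 members, novel_mir5, novel_mir6 and novel_mir215, against 8.21% of all miRNAs. DESeq2 called 2, novel_mir5 and novel_mir6, against 6.47% of all. The groups did not overlap for 5 members, against 31.1% of all. In all, 9 members were lower and 2 higher, with a median log2 fold change of −0.67, against 0.19 over all miRNAs tested. Scaled by miRNA reads the split was 8 to 3, and by all named small RNA reads 10 to 1, while the median over all moved to 0.35 and −0.51. Without the first 5NC library the fold changes of novel_mir5, novel_mir6 and novel_mir215 were −3.10, −2.06 and −1.17. Without the second they were −7.25, −4.41 and −4.89, and 2 of the 11 members passed, novel_mir5 and novel_mir6, as did 30 of the 402 miRNAs. Novel_mir164 had 0.31 without the first 5NC library and 3.00 without the second. The first 5NC library stood apart in known miRNAs too. The epithelial list had 14242 CPM there, against at most 1346 CPM in any other library, with none of its 8 names at 0, and the mesenchymal list 372 CPM, against at least 5008 CPM elsewhere. With overexpression, miR-126, the endothelial marker, summed to 408 and 6439 CPM against 209 and 261 CPM in 5NC, and the blood list (4 of 5 names) to 1684 and 7793 CPM against 765 and 928 CPM. Of the blood list, miR-223-5p was at 0 in both overexpression libraries and the first 5NC library, and miR-144-3p in the first 5NC library. The muscle list (4 of 4 names) had 201 and 3595 CPM against 169 and 1332 CPM, with miR-133a-5p at 0 in each of these libraries. The part of these lists in the result was not tested.

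The next comparison, knockdown against 3NC, concerns inhibition of circRNA28250. The group mean of novel_mir164 was 6029 ± 1610 CPM with knockdown, against 41885 ± 11355 CPM for 3NC (SD, n = 2). Its log2 fold change was −2.80 ± 1.02 (SE), with an edgeR adjusted p of 0.43. Novel_mir1 had 33378 ± 2689 against 125756 ± 59138 CPM (−1.91 ± 0.70), novel_mir432 10588 ± 10862 against 114392 ± 107992 CPM (−3.43 ± 1.51) and novel_mir2 2524 ± 173 against 4465 ± 793 CPM (−0.82 ± 0.83). In these 4 abundant members both knockdown libraries were below both 3NC libraries. Higher means were found for novel_mir8, with 1281 ± 1590 against 179 ± 4.33 CPM (2.84 ± 1.49), novel_mir215, with 319 ± 354 against 132 ± 6.14 CPM (1.27 ± 1.46), novel_mir10, with 969 ± 1286 against 406 ± 206 CPM (1.25 ± 1.47), and novel_mir5, with 81.1 ± 70.4 against 74.9 ± 23.2 CPM (0.11 ± 1.39). In each of the latter the second knockdown library lay below both 3NC libraries and the first above. Without TMM factors the second knockdown library lay above both 3NC libraries for novel_mir8, novel_mir215 and novel_mir5, and of the 4 abundant members novel_mir164 alone kept both knockdown libraries below both 3NC libraries.

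The size of these differences hung on the scaling. Scaled by totals of miRNA reads alone, the log2 fold changes of novel_mir164, novel_mir1 and novel_mir432 were −1.07, −0.17 and −1.52, and that of novel_mir2 turned to 0.88. Scaled by all named small RNA reads, the 4 members had −5.16, −4.16, −6.72 and −3.03, and novel_mir215, novel_mir10 and novel_mir5 turned to −0.25, −0.18 and −1.55. The median over all 402 miRNAs moved from −0.13 with TMM factors to 1.40 and −2.27 with these totals. MiRNA reads were 2.69% and 0.382% of all reads in the knockdown libraries, against 21.5% and 20.3% in 3NC. Novel_mir432, novel_mir164, novel_mir1 and novel_mir2 lay below the median over all miRNAs under each scaling. A scaling shifts all miRNAs of a library by the same factor, so this order was nearly fixed in advance.

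Of the 11 members, 0 passed the edgeR test with knockdown, as did 0 of the 402 miRNAs (0%). An unadjusted p under 0.05 was found for 2 members, novel_mir1 and novel_mir164, against 10.9% of all. DESeq2 called 0 members, against 6.22% of all. It gave no adjusted p to 94 of the 402, which count as not called, while each member had one. The groups did not overlap for 5 members, against 52.2% of all. Lower were 7 members and higher 4, with a median of −0.79 against −0.13 over all. The split of lower to higher became 3 to 8 with miRNA totals and 10 to 1 with those of all named small RNAs. Without the first knockdown library novel_mir8 had a log2 fold change of 0.17 and novel_mir10, novel_mir215 and novel_mir5 had −2.44, −0.58 and −0.91. Without the second, that of novel_mir432 was −5.39, and without the second 3NC library −1.84. Among known miRNAs of other cell types, miR-126 and the blood list were higher with knockdown, while the mesenchymal and muscle lists overlapped with 3NC. MiR-126 summed to 9258 and 10390 CPM against 641 and 707 CPM in 3NC, and the blood list to 5542 and 5672 CPM against 1577 and 2950 CPM. Of the blood list, miR-144-3p and miR-223-5p were at 0 in the first 3NC library and miR-223-5p in the first knockdown library. The muscle list had 369 and 20628 CPM with knockdown and 198 and 3158 CPM in 3NC, with miR-133a-5p at 0 in both knockdown libraries and the first 3NC library. Their part in the result was not tested.

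**Figure D5:**
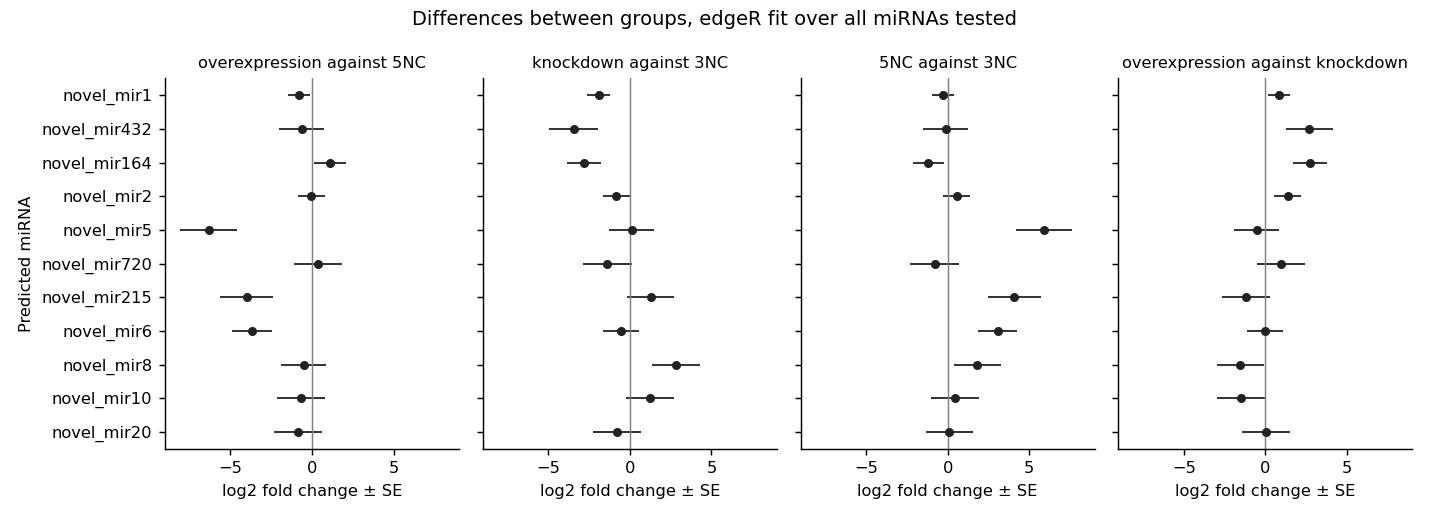
Log2 fold change with its SE (horizontal axis, in log2 units) of each member (vertical axis) in 4 comparisons, from the edgeR fit over 402 miRNAs. Novel_mir5, novel_mir215 and novel_mir6 lie at −6.33, −4.0 and −3.67 against 5NC and at 5.90, 4.09 and 3.06 for 5NC against 3NC, which share the 5NC libraries.

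The controls were compared to see how far groups without a modified circRNA28250 differ. The group mean of novel_mir5 was 4482 ± 5663 CPM for 5NC and 74.9 ± 23.2 CPM for 3NC (SD, n = 2). Its log2 fold change was 5.90 ± 1.71 (SE), with an edgeR adjusted p of 0.67. Novel_mir215 had 2250 ± 2735 against 132 ± 6.14 CPM (4.09 ± 1.63), novel_mir6 1831 ± 1741 against 219 ± 2.69 CPM (3.06 ± 1.18) and novel_mir8 629 ± 563 against 179 ± 4.33 CPM (1.81 ± 1.43). Both 5NC libraries were above both 3NC libraries in these 4. Novel_mir164 had 18571 ± 19188 against 41885 ± 11355 CPM (−1.17 ± 0.97), with both 5NC libraries below, an order that was lost without TMM factors. Novel_mir720 had 1435 ± 1895 against 2504 ± 1629 CPM (−0.80 ± 1.48), novel_mir1 104214 ± 21742 against 125756 ± 59138 CPM (−0.27 ± 0.68) and novel_mir432 105563 ± 34029 against 114392 ± 107992 CPM (−0.12 ± 1.37), with overlapping groups. The values of novel_mir1 and novel_mir432 turned to 0.36 and 0.40 when scaled by all named small RNA reads, and that of novel_mir432 to 0.01 with totals of miRNA reads.

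No member passed the edgeR test between the controls, with 0 of 402 miRNAs (0%) called. An unadjusted p under 0.05 was found for novel_mir5, novel_mir215 and novel_mir6, 3 of 11 members against 6.72% of all. DESeq2 called 2, novel_mir5 and novel_mir215, against 3.98% of all. It gave no adjusted p to 140 of the 402, which count as not called, while each member had one. Groups without overlap numbered 5 of 11, against 47.3% of all. Higher in 5NC were 7 members and lower 4, with a median of 0.45 against −0.28 over all, and the split was 8 to 3 with miRNA totals and 9 to 2 with those of all named small RNAs. Without the first 5NC library novel_mir5, novel_mir215, novel_mir6 and novel_mir8 had 2.67, 1.26, 1.45 and 0.37, novel_mir164 −0.38 and novel_mir720 0.15. Without the second, novel_mir5 had 6.82 and passed, as 1 of 11 members and of 20 among the 402 miRNAs, novel_mir164 had −3.07 and novel_mir720 −4.72. The 5NC libraries serve in this comparison and in that of overexpression, so both rest on the same 5NC levels.

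Overexpression against knockdown set opposite modifications side by side. The group mean of novel_mir164 was 39916 ± 15708 CPM with overexpression, against 6029 ± 1610 CPM for knockdown (SD, n = 2). Its log2 fold change was 2.73 ± 1.02 (SE), with an edgeR adjusted p of 0.53. Novel_mir2 had 6492 ± 2615 against 2524 ± 173 CPM (1.36 ± 0.84) and novel_mir1 59732 ± 12034 against 33378 ± 2689 CPM (0.84 ± 0.68, but −0.57 with totals of miRNA reads). In these 3 members alone did the groups not overlap, against 37.8% of all miRNAs, and without TMM factors they overlapped in novel_mir164 and novel_mir2. Novel_mir432 had 68589 ± 83592 against 10588 ± 10862 CPM (2.70 ± 1.46), and −0.20 without the second overexpression library. Novel_mir8 had 443 ± 127 against 1281 ± 1590 CPM (−1.53 ± 1.42), novel_mir10 349 ± 37.3 against 969 ± 1286 CPM (−1.47 ± 1.48), novel_mir215 141 ± 23.0 against 319 ± 354 CPM (−1.18 ± 1.46) and novel_mir5 55.8 ± 18.4 against 81.1 ± 70.4 CPM (−0.54 ± 1.40). Without the first knockdown library these 4 had 1.37, 2.41, 0.88 and 0.67. When scaled by all named small RNA reads, novel_mir215 had 0.0087 and novel_mir5 0.68.

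Called by edgeR were 0 of 11 members and 0 of 402 miRNAs (0%) between overexpression and knockdown. Novel_mir164 alone had an unadjusted p under 0.05, against 8.46% of all miRNAs, and DESeq2 called 0 members, against 3.48% of all. Of the 402, 94 had no DESeq2 adjusted p and count as not called, while each member had one. Higher with overexpression were 6 members and lower 5, with a median of 0.04 against 0.08 over all. The split was 3 to 8 with miRNA totals and 9 to 2 with those of all named small RNAs.

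The difference of effects was overexpression minus 5NC, less knockdown minus 3NC, on the log2 scale. It was 3.90 ± 1.40 for novel_mir164 and −6.44 ± 2.13 for novel_mir5 (SE, 2 libraries in each group, edgeR adjusted p of 0.36 for both). Novel_mir215 had −5.27 ± 2.16, novel_mir6 −3.12 ± 1.59, novel_mir432 2.81 ± 1.98 and novel_mir1 1.11 ± 0.96, which became −0.42 with totals of miRNA reads. Of the 11 members, 0 passed the edgeR test, with 0 of 402 miRNAs (0%). An unadjusted p under 0.05 was found for novel_mir5, novel_mir164 and novel_mir215, against 11.9% of all. DESeq2 called novel_mir5, 1 of 11 members, against 3.23% of all. Of the 402, 86 had no DESeq2 adjusted p and count as not called, while each member had one. Without the first 5NC library novel_mir5 had −3.21, novel_mir215 −2.44 and novel_mir6 −1.51. Without the second, novel_mir5 had −7.37 and novel_mir164 5.79, and both passed, among 42 of the 402 miRNAs. Novel_mir432 had −0.19 without the second overexpression library.

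Predicted miRNAs missing from some libraries and known miRNAs found in all were read by the same fit. The median mean level of the 653 former was 1.94 CPM, against 1173 CPM for the members and 280 CPM for the 190 known miRNAs. The detection rule itself favours this order. A member needed at least 10 reads in each library, whereas a known miRNA needed 1. Of the 653, 122 passed the filter on low counts. Among those 122, 0 were called by edgeR in any of the 5 comparisons, and DESeq2 called 5 to 11. Among the 190 known miRNAs edgeR called 0 and DESeq2 6 to 14. In each comparison but overexpression against 5NC, DESeq2 gave no adjusted p to 47 to 68 of the 122. The same held for 5 to 16 of the 190.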

How the data were processed

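The members and the marker lists were chosen with earlier results of these data known. The authors deposited read counts per feature and TPM values, per the file headers. The deposited TPM values equalled CPM of the column total within 0.0141% for features of at least 1000 reads, and 1 value could not be read. They were used for this check only. The sources used here do not name the aligner, the prediction tool or the build. Counts of a known miRNA were summed over its mature and hairpin features, and exon, intron, intergenic and repeat classes stayed out. R 4.3.3 with edgeR 4.0.16 was used: all 1025 miRNAs, filterByExpr with a minimum count of 10 (402 kept, 269 known and 133 predicted), TMM factors of 0.641 to 2.61, and the robust quasi-likelihood test on 8 libraries with 4 residual degrees of freedom. Two-sided p-values took a Benjamini-Hochberg adjustment across the 402 miRNAs and counted as called under 0.05. The common dispersion was 1.43. The SE was the absolute log2 fold change divided by the square root of F, and is approximate. DESeq2 1.42.0 was an alternative. Members named with fold changes were the 4 with the lowest p per direction (3 for the difference of effects). Levels, spread, locus counts and the members just inside and outside the rule were taken by rank as well.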

Additional observations from a re-analysis of the deposited data

How the results depend on the processing

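Of 36 fold changes of members, 267 of 288 values under other settings kept their direction and side of the threshold. With 1 library left out, 17 of 288 values turned direction. Part of both tallies was fixed in advance. The highest row of an id repeats the main values, and leaving out a library of a group outside a comparison moves its fold change little. DESeq2 called 2, 0, 2, 0 and 1 members and 26, 25, 16, 14 and 13 miRNAs (overexpression against 5NC, knockdown against 3NC, 5NC against 3NC, overexpression against knockdown, difference of effects). Without the filter, 1 member, novel_mir5, was called in the first of these, and 5, 5, 2 and 5 miRNAs in all but the fourth, out of 1025 tested. With totals of all named small RNAs 1 miRNA was called with overexpression and 3 in the difference of effects. Leaving out 1 library gave 0 to 2, 0 to 1 and 0 to 2 members and 0 to 30, 0 to 20 and 0 to 42 miRNAs with overexpression against 5NC, 5NC against 3NC and the difference of effects, the highest without the second 5NC library, and 0 in the others.

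Directions turned as follows; the cause was not tested. With totals of miRNA reads: novel_mir2 0.88 (knockdown against 3NC), novel_mir432 0.011 (5NC against 3NC), novel_mir1 −0.57 (overexpression against knockdown) and −0.42 (difference of effects). With totals of all named small RNAs: novel_mir720 −0.64 (overexpression against 5NC), novel_mir5 −1.55, novel_mir215 −0.25 and novel_mir10 −0.18 (knockdown against 3NC), novel_mir1 0.36 and novel_mir432 0.40 (5NC against 3NC), novel_mir5 0.68 and novel_mir215 0.0087 (overexpression against knockdown). With mature features only, novel_mir5 had −0.0076 (knockdown against 3NC). With the replicate number as a block, novel_mir5 had −0.36 (knockdown against 3NC) and novel_mir432 0.51 (5NC against 3NC), and 0 members and 0 miRNAs were called. Same-numbered libraries deviated with correlations of −0.072 to 0.29 over 402 miRNAs, over 0.1 in 3 of 6 pairs of groups (3NC, overexpression and knockdown with each other). A pairing was not assumed, since the labels state none and not every pair of groups was over 0.1.

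With 1 library left out, the ranges that crossed 0 were −0.57 to 4.30 for novel_mir720 (overexpression against 5NC), −0.91 to 0.75, −0.58 to 2.07 and −2.44 to 2.14 for novel_mir5, novel_mir215 and novel_mir10 (knockdown against 3NC), −0.69 to 0.31, −0.85 to 1.47 and −4.72 to 0.15 for novel_mir1, novel_mir432 and novel_mir720 (5NC against 3NC), −0.20 to 4.77, −0.99 to 0.67, −1.77 to 0.88, −2.18 to 1.37 and −2.17 to 2.41 for novel_mir432, novel_mir5, novel_mir215, novel_mir8 and novel_mir10 (overexpression against knockdown), and −0.19 to 4.78 for novel_mir432 (difference of effects). A group left with 1 library is assumed to vary like the others.

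With mature features only, hairpin reads of known miRNAs leave the total while member reads stay, so the summed share can only rise. It was 24.2% in 5NC, and it rose in the libraries of the other groups too. There it was 17.7% and 32.8% in 3NC, 9.81% and 36.3% with overexpression, and 12.8% and 24.3% with knockdown. Of all named small RNA reads the summed share was 10.2% in 3NC, 12.9% in 5NC, 4.18% with overexpression and 0.383% with knockdown. The highest row of an id gave the same values, since each id has 1 row. Depth limits novel_mir5 and novel_mir20 most, with 10 and 11 reads in the second knockdown library.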
